A study of Polypedilum vanderplanki with 84 samples.

Results

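The genes described here were measured as RNA in Pv11 cells. Their highest group mean in a time course lay at the end of drying or within the first 3 h of rehydration. There are 150 of them, among 18248 genes in the whole table, and they were chosen by their own values in a time course of preconditioning, drying and rehydration. A gene had to carry a g number, lie outside a short list of numbers set aside, have a mean above 1 TPM (a gene's share of the transcripts of a library, corrected for length) over all 84 libraries, and show a ratio of (heat shock 1 h + 1) to (control 1 h + 1) below 2. Its highest group mean among the 10 time-course groups had to fall at 0 or 3 h of rehydration. The genes were then ranked by R, the ratio of (highest group mean + 1) to (lowest group mean + 1), and the 150 with the largest R were kept from 740 genes with R of at least 3. The time course and the heat shock at 1 h therefore selected the members and are given below as a description without a test. Of the 18248 genes, 9450 had a mean above 1 TPM and were tested, and all 150 members are among them because the rule asks for that mean.

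Anhydrobiosis is the ability to survive almost complete loss of body water and to resume life when water returns. The sleeping chironomid Polypedilum vanderplanki is the insect known for it, and Pv11 is a cell line derived from this midge that can be dried and revived when it is first kept in trehalose, a disaccharide that protects membranes and proteins in the dry state. During slow water loss such cells make protective proteins, among them the late embryogenesis abundant (LEA) proteins, and on rehydration they have to rebuild their proteins, membranes and DNA. Osmotic stress withdraws water from a cell without drying it, paraquat causes oxidative stress inside the cell, and heat unfolds proteins.

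All libraries were made from Pv11 cells, so every group rests on 1 cell line. The time course holds 30 libraries in 10 groups. Cells were kept in 600 mM trehalose mixed with a little medium (PreCondTre) for 0, 12, 24, 36 or 48 h, or were preconditioned for 48 h, dried for more than 10 days at low humidity, and collected 0, 3, 12, 24 or 72 h into rehydration with medium (Rehydration). The stress experiment holds 54 libraries in 18 groups, in which cells were left untreated (Control), given NaCl (0.5% in the sample labels and the study's supplementary methods, while its main text prints another figure), 600 mM mannitol, 600 mM trehalose or 20 µM paraquat, or heated to 42°C for a short pulse, and were sampled at 1, 3 and 24 h. Each group has 3 replicates. The 2 experiments were made separately, so levels set across them are shown side by side only. Read depth is unknown, since the table holds TPM, and a value of 0 is called listed at 0. Within a group, log2(TPM + 1) of 2 replicates correlated with r between 0.944 and 0.995 across genes, which are not independent replicates, and the lowest value was that of Control 3 h replicates 1 and 2.

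The members are known almost wholly by number. The files do not pair g numbers with gene names, and the reference gene table used here lists other identifiers, so no function, position or sequence is given for a numbered gene. The exception is g17258, which the study names PvLea12a, a LEA protein gene. Lists of functions fixed by product name could not be applied for the same reason. Among the members 55 (36.7%) were listed with 1 transcript, against 29.96% of all genes tested. Of the other 95 members, 66 had the same leading transcript in their highest and their lowest group. The genes g7409 and g7415 had equal TPM in all 84 libraries. They were named because of that equality, and their reads cannot be told apart here.

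The rule gave R from 5.60 to 106.06, with a median of 6.98. R was 10 or more in 33 members and 20 or more in 8. At the border g5421 (R 5.63) and g161 (5.60) were the last genes taken, and g17437 (5.57) and g7974 (5.52) were the first left out. Levels at the peak ranged from 5.66 to 6015 TPM, with a median of 24.5 TPM. The peak exceeded 100 TPM in 33 members and 1000 TPM in 5. Replicates at the peak had a median coefficient of variation of 12.3%, and 5 members varied by more than 50%.

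In the values as deposited, which the rule used, the peak lay at Rehydration 0 h in 52 members and at Rehydration 3 h in 98. Which of these times was higher for most members depended on the scaling, as given below. In 83 members all 3 libraries of the peak group lay above the 24 libraries of the 8 groups outside Rehydration 0 and 3 h. In the others the libraries overlapped, and the peak is one of the mean only. The lowest point was PreCondTre 0 h in 76 members, PreCondTre 24 h in 40 and Rehydration 72 h in 18. Together the members held 0.363% ± 0.0142 of all TPM at PreCondTre 0 h (SD, n = 3). This share was 1.04% ± 0.0121 after 12 h in trehalose and 1.13% ± 0.0131 after 48 h. It was 1.78% ± 0.0413 at Rehydration 0 h and 2.27% ± 0.226 at Rehydration 3 h, and 1.23% ± 0.131 at Rehydration 72 h. At that last time the lowest library was still at 1.11%, above the highest PreCondTre 0 h library at 0.378%. These sums are weighted to a few abundant genes and do not describe the typical member. From Rehydration 0 to 3 h the mean of g14357 went from 343 to 2787 TPM and that of g17774 from 1100 to 2109 TPM. The mean of g12479 was 5320 TPM at Rehydration 72 h.

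The median change of the members was largest upwards in 2 steps, the first 12 h of trehalose and drying, and single members differed. At PreCondTre 12 h the median change from 0 h was 0.78 on the log2(TPM + 1) scale, and 68 members lay more than 2-fold higher, while the median over all 9450 genes was -0.05. Levels then dipped, with a median of -0.36 from 12 to 24 h. Across drying, from PreCondTre 48 h to Rehydration 0 h, the median change was 0.90, and 59 members rose more than 2-fold with no overlap of libraries, a pattern seen in 3.99% of all genes. From 0 to 3 h of rehydration 33 members rose in that way, against 8.14% of all genes, and the median of members (0.25) lay beside that of all genes (0.28). After median ratio scaling 26 members rose in that way in this step, against 2.68% of all genes. The medians were then -0.08 for members and -0.05 for all genes. Between 3 and 12 h, 59 members fell more than 2-fold with no overlap, against 2.26% of all genes. The median change in that step was -0.80 for members and 0.29 for all genes. Because these steps belong to the rule, nothing is read from the counts. At Rehydration 72 h 73 members stood more than 2-fold above PreCondTre 0 h and 15 more than 2-fold below. In 71 and 14 of these the libraries did not overlap, a pattern seen upwards in 21.8% and downwards in 3.37% of all genes, whose median change was 0.54. After median ratio scaling 54 members stood more than 2-fold above and 19 below. In 52 and 17 of these the libraries did not overlap, against 7.67% upwards and 7.94% downwards of all genes after scaling.

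**Figure D1:**
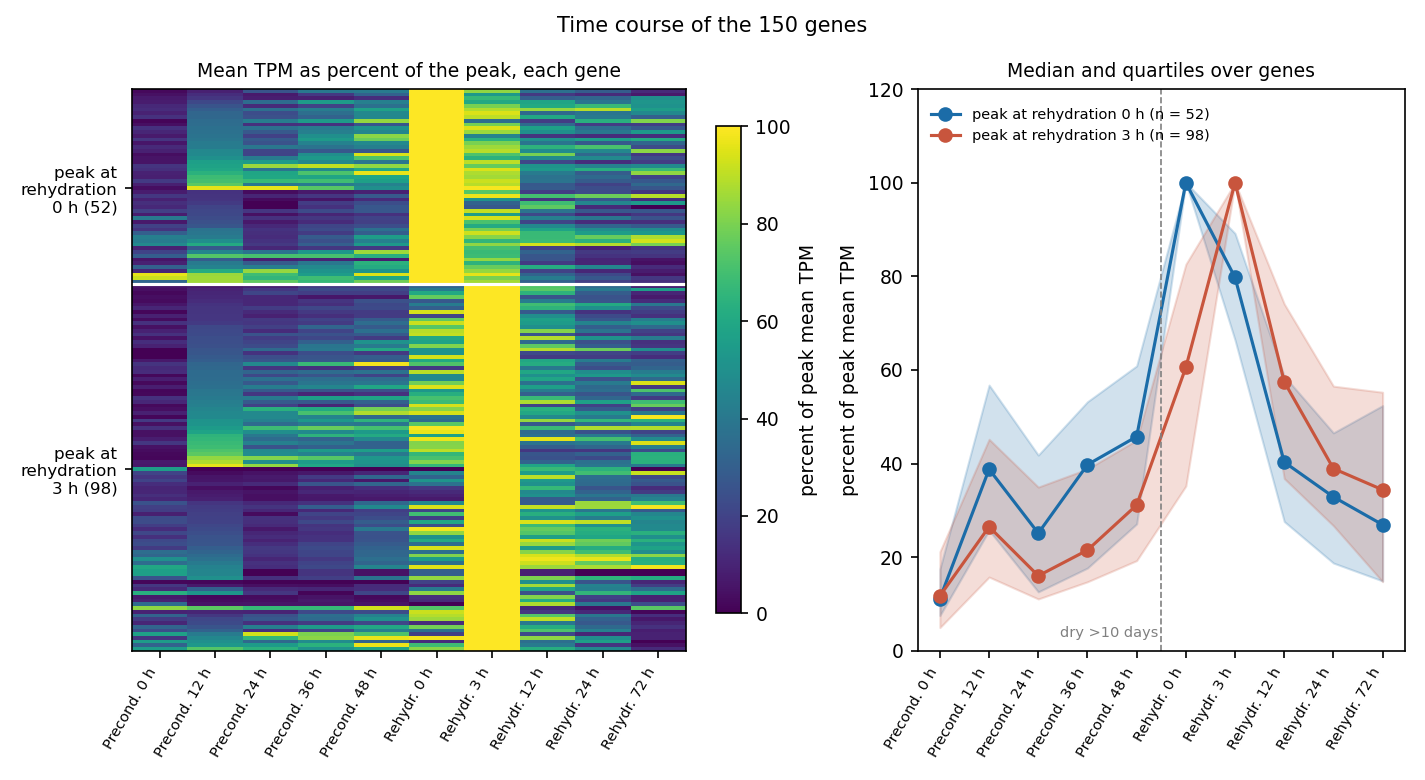
Left, the mean TPM of each of the 150 genes (rows) in the 10 time-course groups (columns) as a percent of that gene's highest group mean, with the 52 genes highest at Rehydration 0 h above the white line and the 98 highest at 3 h below it. Right, the median (points) and quartiles (bands) of the same percents over the genes of each set, with the vertical axis in percent of peak mean TPM. The medians of both sets step up at 12 h of preconditioning, dip at 24 h, peak at 0 or 3 h of rehydration and come down by 12 h.

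The most abundant member, g12479, was already high in every group. It was listed at 752, 992 and 777 TPM at PreCondTre 0 h and at 4303, 4233 and 4198 TPM at 48 h. It reached 5878, 6239 and 5756 TPM at Rehydration 0 h and 6608, 5681 and 5756 TPM at 3 h. The dried and 3 h libraries overlap each other and lie above every preconditioning library. Later means stayed high, at 4107 TPM at Rehydration 12 h, 5297 TPM at 24 h and 5320 TPM at 72 h, against 6015 TPM at the peak.

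The largest R belonged to g3547, a gene of 1 listed transcript. Its Rehydration 0 h libraries stood at 110, 101 and 104 TPM. All 3 PreCondTre 24 h libraries were listed at 0, but elsewhere its replicates disagreed, with 53.6, 0.01 and 0 TPM at PreCondTre 12 h and 24.8, 45.8 and 4.28 TPM at 48 h. Its R thus rests partly on libraries listed at 0, and its values in other groups have to be read library by library.

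Runs of consecutive numbers supplied several members of large R. Of the 150, 31 fell in 11 runs of consecutive g numbers, and no such count was made for all tested genes. The longest were g17245 to g17248, g17482 to g17485 and g17498 to g17501, with 4 genes each. Genes numbered g17000 to g17999 made up 28 members of 278 tested in that range (10.1%). In the ranges of like width below g17000 this share ran from 0.623% to 2.31%. Over all numbers, 150 of 8943 tested genes with a g number were members. In the range g17480 to g17502, 11 of 20 tested genes were members. There g17481 and g17486 also peaked at Rehydration 3 h, with R of 67.5 and 229, and were left out only by the heat ratio (2.81 and 3.07), as were 18 genes in all with R at or above that of the last member. Consecutive numbers are not positions, and whether such neighbours share reads was not tested.

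The run g17498 to g17501 stepped up in trehalose, before drying. g17499 was listed at 118, 110 and 102 TPM at PreCondTre 0 h and at 1322, 1390 and 1297 TPM at 12 h. It stood at 1173, 1228 and 1274 TPM at Rehydration 0 h, at 1596, 1367 and 1580 TPM at 3 h, and at 461, 460 and 528 TPM at 12 h. Thus the 12 h trehalose libraries lie among the libraries of drying and early rehydration, and the level was lower again after 12 h in medium. At Rehydration 72 h its mean was higher again, at 970 TPM against 483 TPM at 12 h. So were those of g17498 (217 against 84.7 TPM), g17500 (20.4 against 11.8 TPM) and g17501 (128 against 53.7 TPM). g17498 was listed at 5.28, 6.21 and 7.80 TPM at PreCondTre 0 h and at 351, 303 and 354 TPM at Rehydration 3 h. Its 12 h trehalose libraries, at 251, 251 and 344 TPM, overlap the 3 h libraries. In g17485 the mean was 18.5 TPM at PreCondTre 48 h and 59.1 TPM at Rehydration 0 h.

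PvLea12a (g17258) was a member at low level. Its libraries were listed at 0.39, 0.25 and 0.62 TPM at PreCondTre 0 h and 6.21, 5.40 and 6.26 TPM at 12 h. They stood at 5.53, 3.97 and 6.23 TPM at Rehydration 0 h and at 9.98, 11.6 and 5.83 TPM at 3 h. The Rehydration 3 h replicates spread enough to overlap the preconditioning libraries, so the peak at 3 h is not separated from the 12 h level. PvLea12b (g17260) had its highest mean, 3.23 TPM, in the same group but was not a member.

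**Figure D2:**
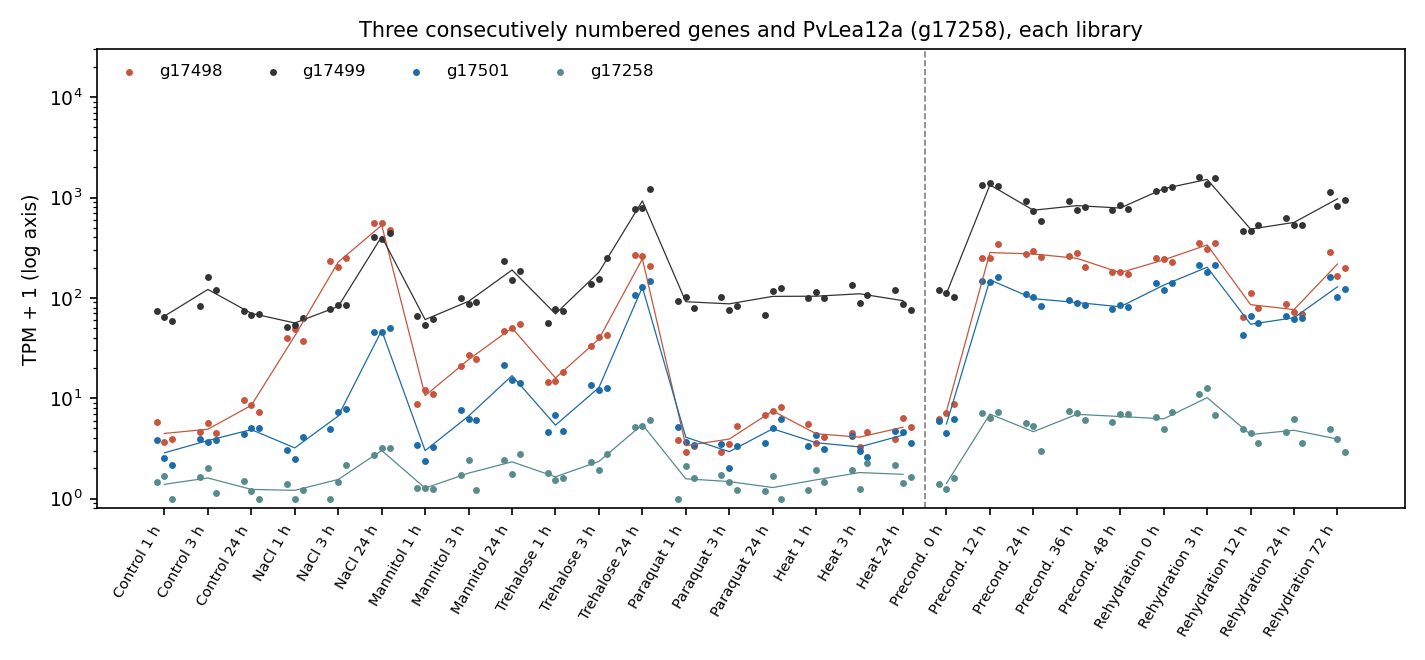
TPM + 1 on a log axis in every library (points, 3 per group) for g17498, g17499, g17501 and PvLea12a (g17258), with lines through the group means, for the 18 stress groups left of the dashed line and the 10 time-course groups right of it. Each gene is low, relative to its own peak, in the control, paraquat and heat libraries and at PreCondTre 0 h, higher at 12 h of trehalose, at 0 and 3 h of rehydration and at 24 h of NaCl or trehalose, and lower again at 12 h of rehydration than at 3 h.

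The genes g15654, g14357 and g17774 went up and down together from library to library. At Rehydration 3 h g14357 was listed at 1323, 2611 and 4429 TPM. g15654 stood at 225, 398 and 619 TPM in the same libraries, and g17774 at 1209, 2138 and 2979 TPM, in the same order. In Heat 3 h the libraries of g14357 were at 116, 3088 and 203 TPM. Those of g15654 were at 12.8, 359 and 20.0 TPM and those of g17774 at 181, 3113 and 262 TPM, so replicate 2 stood apart for all 3 genes. Over the 84 libraries the ratio of g14357 to g15654 stayed between 4.87 and 10.2 while g14357 itself ranged from 55.0 to 4429 TPM. The deviations of g14357 from its group means correlated with those of g15654 (r = 0.99) and g17774 (r = 0.93) over 84 libraries, which share their library preparation and scaling. The highest such value with any other tested gene was 0.64, and with any other member 0.28. Their means in a group can rest on 1 library, and whether they share reads was not tested.

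**Figure D3:**
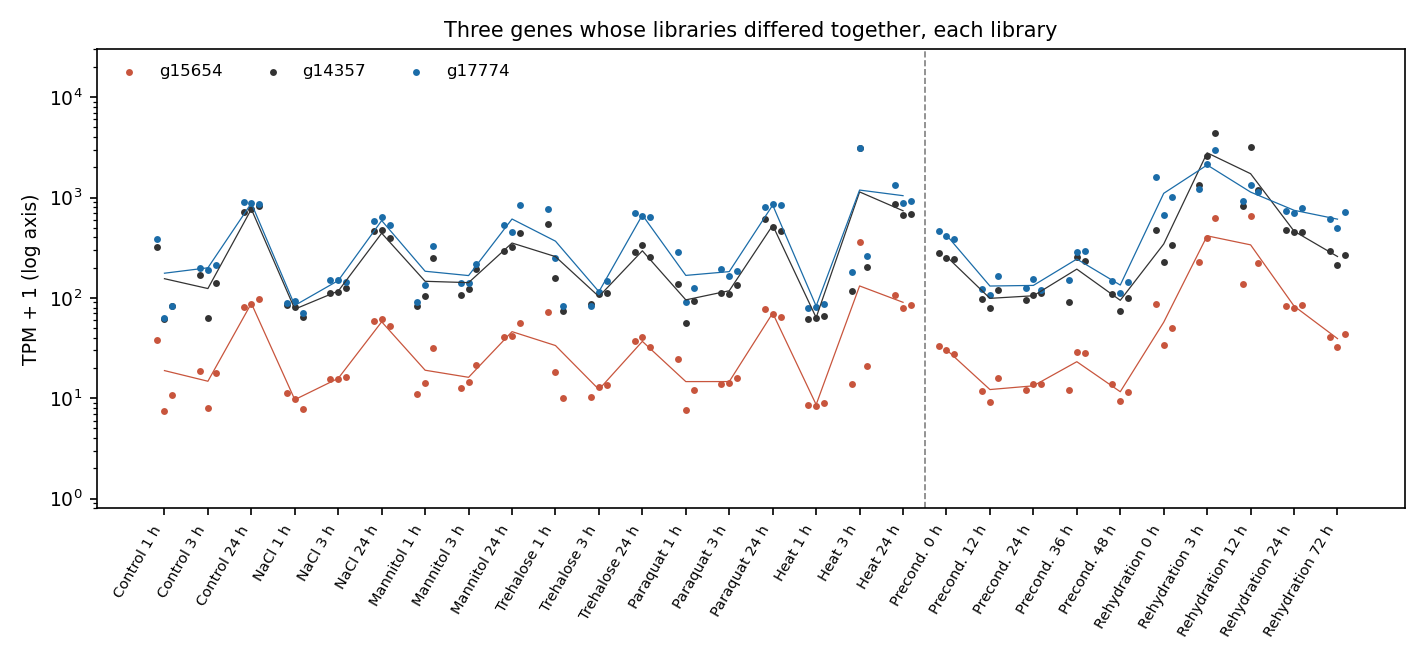
TPM + 1 on a log axis in every library (points, 3 per group) for g15654, g14357 and g17774, with lines through the group means, for the stress groups left and the time-course groups right of the dashed line. Heat 3 h replicate 2 stands at 359, 3088 and 3113 TPM, far above the other 2 replicates of that group for each gene.

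The stress experiment asks which of these genes answer to osmotic, oxidative or heat stress in cells that were not dried. Its 54 libraries took part in the selection through the mean over all 84 libraries, and those of the heat shock at 1 h and its control also through the heat ratio. The 1 h comparisons share that control. Each treated group was set against its own time's control by limma on log2(TPM + 1), with Benjamini-Hochberg adjustment over 9450 genes, and a gene was called at an adjusted p under 0.05 and a fold above 2. An exact permutation test on 1 gene could reach a p of 0.10 at the lowest with groups of 3. Of the members, 98 (65.3%) were raised in at least 1 of the 9 osmotic comparisons, against 16.5% of all genes tested. A further 35 (23.3%) were called in none of the 9, against 37.4% of all genes. Trehalose was also the solute of the time course that chose the members, of which 76 were lowest at PreCondTre 0 h. Rises with trehalose were thus favoured by the selection, and these shares are not independent of it. Since the 3 osmolytes share their controls, each comparison is given on its own.

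After 24 h the members stood higher under all 3 osmolytes. NaCl raised 54 members (36.0%), against 7.75% of all genes, and lowered 2 (1.33%), against 11.2%. Mannitol raised 51 (34.0%), against 8.46%, and lowered 1 (0.667%), against 4.76%. Trehalose raised 58 (38.7%), against 6.99%, and lowered 4 (2.67%), against 10.3%. Of the 58, 45 were among the 76 members lowest at PreCondTre 0 h, where the selection itself favoured such a rise. The median log2 change of the members was 0.74 with NaCl, 0.77 with mannitol and 0.68 with trehalose, and that of all genes was -0.17, -0.01 and -0.13. For each of these called members, all 3 treated libraries lay outside the range of the 3 controls.

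Earlier the picture was less uniform. At 1 h NaCl raised 16 members, against 1.74% of all genes, and lowered 6, against 10.4%. Mannitol at 1 h raised 6, against 0.434%, and lowered 4, against 3.39%. Trehalose at 1 h raised 10, against 0.677%, and lowered 1, against 2.57%. At 3 h the whole table shifted downwards, with a median over all genes of -0.75 for NaCl, -0.43 for mannitol and -0.62 for trehalose, while the members' medians were 0.12, 0.30 and 0.13. NaCl at 3 h raised 28 members, against 2.85% of all genes, and lowered 11, against 37.1%. Mannitol raised 28 members, against 4.59%, and lowered 5, against 20.6%. Trehalose raised 23 members, against 2.37%, and lowered 11, against 27.8%. The lowered counts leaned on the 3 h controls. Without Control 3 h replicate 1 they became 22, 11 and 21 for NaCl, mannitol and trehalose, and without replicate 2 they became 5 for NaCl and 5 for trehalose.

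Since TPM is relative to everything else in a library, the comparisons were repeated after dividing each library by its median ratio to a reference made of all libraries, which brought the median over all genes to between -0.02 and 0.04 in the 9 osmotic comparisons. More members were then raised in each of the 9, and fewer lowered in each except mannitol at 24 h, relative to the typical gene. At 24 h NaCl then raised 66 members (11.1% of all genes) and lowered 0 (7.7%). Mannitol raised 54 (9.27%) and lowered 2 (5.25%), and trehalose raised 65 (9.68%) and lowered 3 (8.02%). At 3 h NaCl raised 60 (12.1%) and lowered 2 (12.1%), mannitol raised 50 (10.0%) and lowered 2 (6.81%), and trehalose raised 48 (8.84%) and lowered 2 (7.76%). At 1 h NaCl raised 24 (3.45%) and lowered 3 (3.47%), mannitol raised 15 (1.13%) and lowered 0 (0.37%), and trehalose raised 13 (1.42%) and lowered 0 (0.772%). The percentages in parentheses are the shares of all 9450 genes.

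**Figure D4:**
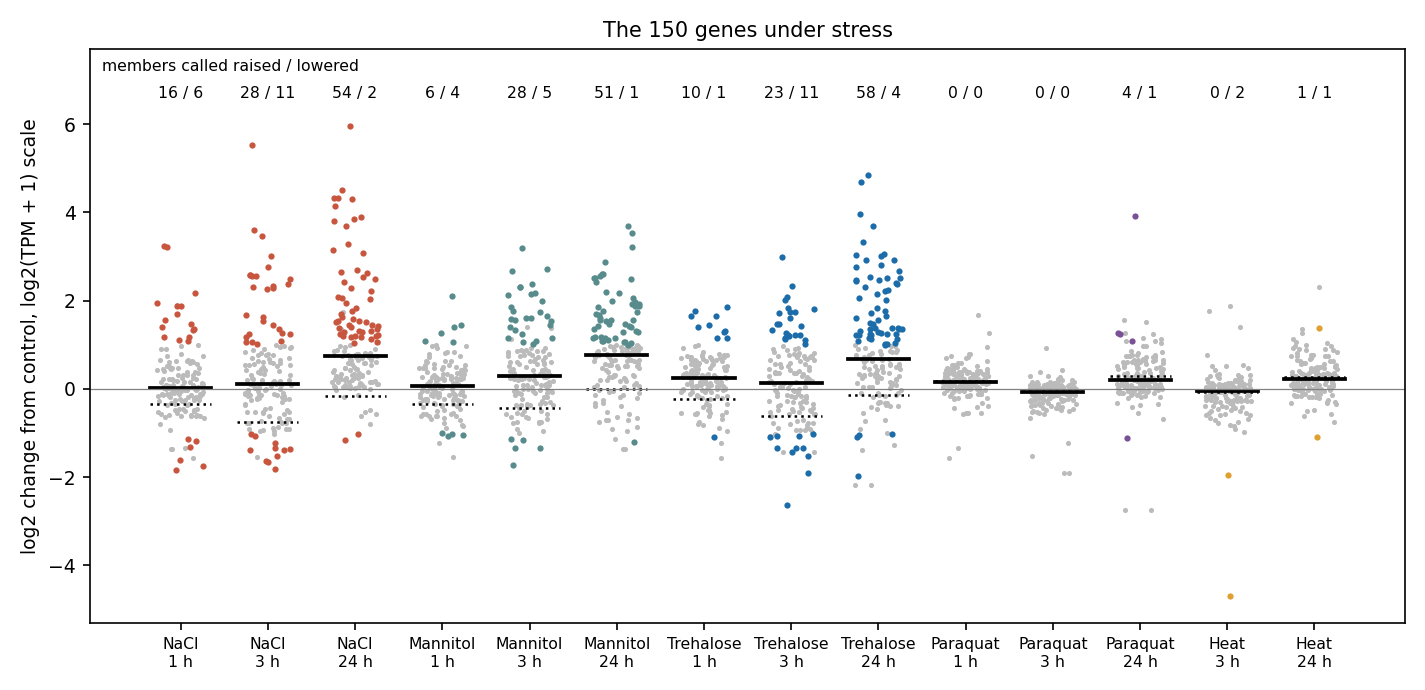
Log2 change from the time-matched control, on the log2(TPM + 1) scale, for each of the 150 genes (points) in 14 comparisons, with called genes coloured and others grey. Solid bars are the median of the 150 genes and dotted bars that of all 9450 genes, and the numbers above each column count raised and lowered members. The solid bar lies above the dotted one under NaCl, mannitol and trehalose at each time, and close to it under paraquat and heat.

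Under NaCl the steepest rise was that of g17498, which was listed at 8.52, 7.64 and 6.35 TPM in Control 24 h and at 556, 553 and 477 TPM in NaCl 24 h. Its log2 change was 5.96 ± 0.194 (SE; adjusted p = 3.5e-26). It was up at 1 h already, by 3.25 ± 0.194 (adjusted p = 4.6e-17), and NaCl 24 h is the one group of the stress experiment above its time-course peak of 336 TPM. g9973 was listed at 18.2, 15.7 and 13.96 TPM in the control and at 376, 376 and 398 TPM after 24 h of NaCl, a log2 change of 4.51 ± 0.171 (adjusted p = 5.3e-24). The 2 members lowered by NaCl at 24 h were g7434, at -1.15 ± 0.464 (adjusted p = 0.0341), and g10342, at -1.01 ± 0.364 (adjusted p = 0.0169). Neither fall was called after median ratio scaling.

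With trehalose g17498 and g17501 rose most. g17498 stood at 267, 261 and 205 TPM after 24 h, a log2 change of 4.85 ± 0.194 (adjusted p = 1.8e-23). g17501 was listed at 3.43, 4.10 and 4.09 TPM in the control and at 105, 128 and 147 TPM with trehalose, a change of 4.70 ± 0.238 (adjusted p = 4.0e-20). Of the 4 members lowered, g9624 fell most, from a mean of 3.27 to 0.04 TPM, with a change of -1.98 ± 0.256 (adjusted p = 1.5e-08) that the pseudocount holds small. g10342 changed by -1.08 ± 0.364 (adjusted p = 0.0116) and was not called after scaling. PvLea12a (g17258) was listed at 0.51, 0.20 and 0 TPM in the control and at 4.16, 4.25 and 5.01 TPM with trehalose. Its change was 2.16 ± 0.279 with trehalose (adjusted p = 1.4e-08) and 1.30 ± 0.279 with NaCl (adjusted p = 1.1e-04). With mannitol it was 0.91 ± 0.279 (adjusted p = 0.00662), under the fold asked for, and it passed that fold after scaling, at 1.02.

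Under mannitol g11205 rose from a mean of 1.79 to 31.9 TPM, a log2 change of 3.54 ± 0.188 (adjusted p = 5.1e-19). g3547 had the largest fitted change, 3.68 ± 1.14 (adjusted p = 0.00698), but its mannitol libraries were at 6.51, 55.7 and 14.1 TPM and 2 of its 3 controls were listed at 0. Without replicate 2 of every group it was not called (adjusted p = 0.117). The 1 member lowered by mannitol at 24 h was g9624, at -1.20 ± 0.256 (adjusted p = 1.3e-04).

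Set beside the time course, stress brought most members to only part of their peak in the values as deposited. That peak is the maximum by which the rule chose them. At NaCl 24 h the median member stood at 26.1% of its time-course peak, at Mannitol 24 h at 21.2%, at Trehalose 24 h at 24.6% and at Control 24 h at 11.8%. At least 50% of the peak was reached by 34, 22, 31 and 5 members in these groups. Levels above the peak were found in 13 members with NaCl, 4 with mannitol, 1 with trehalose and 4 in the untreated control. The ratio that median ratio scaling divides by had a median of 0.697 at NaCl 24 h, 0.844 at Mannitol 24 h and 0.69 at Trehalose 24 h. It was 0.827 at Control 24 h, 1.056 at Rehydration 0 h and 1.329 at Rehydration 3 h. Percentages of the peak would thus be higher after scaling, and they were not computed. The 2 experiments are separate, and no test was made.

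With paraquat and after heat the shares of genes called were small, in the members and in all genes. At 1 and 3 h of paraquat limma called 0 members and 0% of all genes. At an unadjusted p under 0.05 there were 15 members at 1 h and 8 at 3 h, of 1456 and 472 genes in all. At 24 h of paraquat 5 members were called, 4 raised and 1 lowered, against 2.9% of all genes. None was called after scaling or without any of Control 24 h replicates 2 and 3 and Paraquat 24 h replicates 2 and 3, and 17 were called without Paraquat 24 h replicate 1. The 2 with the largest changes were g3547, at 3.93 ± 1.14 (adjusted p = 0.0414), with paraquat libraries at 17.95, 35.6 and 14.4 TPM, and g8825, at 1.26 ± 0.327 (adjusted p = 0.0391).

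After heat 2 members were called at 3 h, against 0.487% of all genes, and 2 at 24 h, against 1.79%. The rule had left out genes with a heat ratio of 2 or more at 1 h. Low counts of rises after heat were thus partly favoured by the selection, and nothing is read from them. At 3 h g3547 was listed at 0 in all 3 heated libraries and at 9.27, 52.1 and 31.0 TPM in the controls. g3757 changed by -1.96 ± 0.163 (adjusted p = 8.2e-12), and its level at 1 h, which the rule saw, was also lower. At 24 h g8825 was raised and g10342 lowered. The 3 h count became 7 without Control 3 h replicate 1, 4 without Heat 3 h replicate 1 and 1 without Control 3 h replicate 2. The 24 h count became 15 without Heat 24 h replicate 3, 4 without Control 24 h replicate 1 and 1 without any other single library of the comparison.

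The direct comparison of osmolytes at 24 h asks whether the members answer to a given solute. The members were chosen from a time course in trehalose, so comparisons with trehalose are not independent of that choice. Between trehalose and NaCl, 19 members were higher with trehalose (12.7%), against 8.78% of all genes, and 29 higher with NaCl (19.3%), against 8.34%. The widest gap was that of g17267, at 258, 301 and 323 TPM with NaCl and at 14.8, 13.0 and 28.4 TPM with trehalose, a log2 difference of -3.98 ± 0.371 (adjusted p = 5.8e-12). Its control libraries were at 13.8, 14.2 and 13.1 TPM, so the trehalose libraries overlap the controls and the NaCl libraries stand far above both. g17498 was also higher with NaCl, at -1.12 ± 0.194 (adjusted p = 5.4e-06). Its neighbours g17499 and g17501 were higher with trehalose, at 1.15 ± 0.218 (adjusted p = 2.2e-05) and 1.42 ± 0.238 (adjusted p = 2.9e-06). Within 1 run of numbers, then, the order of both solutes was opposite.

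Between trehalose and mannitol, 23 members were higher with trehalose (15.3%), against 1.27% of all genes, and 11 higher with mannitol (7.33%), against 3.49%. Of the 23, 22 were among the 76 members lowest at PreCondTre 0 h, where the selection favoured a rise with trehalose. g17501 differed most, by 2.93 ± 0.238 (adjusted p = 6.5e-13), and PvLea12a (g17258) by 1.26 ± 0.279 (adjusted p = 5.2e-04). The count higher with mannitol was 7 without Mannitol 24 h replicate 1, 6 without replicate 2 and 17 without replicate 3. Between NaCl and mannitol, 35 members were higher with NaCl (23.3%), against 4.62%, and 17 higher with mannitol (11.3%), against 9.15%. g17267 differed by 5.03 ± 0.371 (adjusted p = 8.7e-15) and g7434 by -3.75 ± 0.464 (adjusted p = 6.6e-09).

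**Figure D5:**
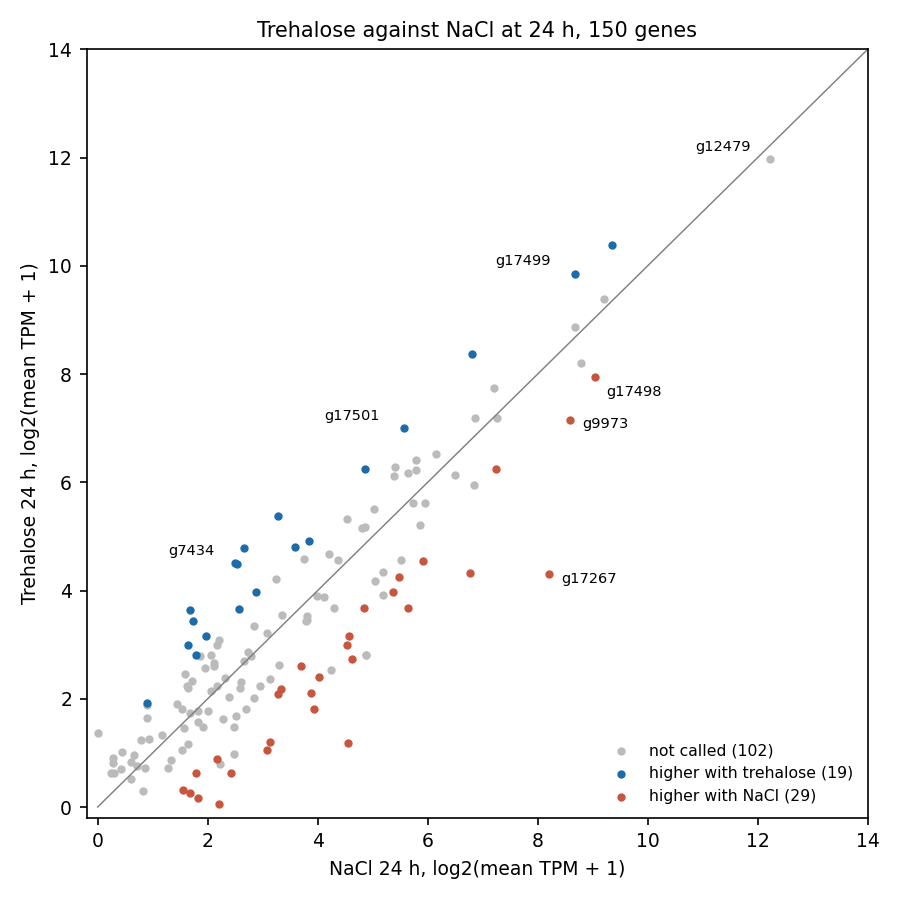
Mean level of each of the 150 genes after 24 h of NaCl (horizontal axis) and of trehalose (vertical axis), both as log2(mean TPM + 1), n = 3 per group, with the diagonal marking equal levels. The 19 genes called higher with trehalose are blue and the 29 called higher with NaCl red, and g17267 is the red point farthest from the diagonal.

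The calls are also given by the time-course group in which a member was lowest, a value the rule used. In the first of the 3 sets below that group was the start of preconditioning, so a rise with trehalose was favoured by the choice. For the second set that group was itself a time in trehalose, so a weak answer to trehalose was built in. Nothing is read from the counts of these sets. Of the 76 members lowest at PreCondTre 0 h, NaCl at 24 h raised 39, mannitol 30 and trehalose 45, and lowered 0 with each. Of the 40 members lowest at PreCondTre 24 h, NaCl raised 8, mannitol 11 and trehalose 2, and trehalose lowered 2. Over all genes the raised shares at 24 h were 7.75%, 8.46% and 6.99%. The 18 members lowest at Rehydration 72 h were raised by NaCl in 3, by mannitol in 8 and by trehalose in 8 cases.

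By the time of the peak, of the 52 members highest at Rehydration 0 h, 10 were higher with trehalose than with NaCl and 4 higher with NaCl. Of the 98 highest at 3 h, 9 were higher with trehalose and 25 higher with NaCl. Over all genes these shares were 8.78% and 8.34%, and the split uses the peak time that the rule used. The median difference was 0.34 in the first set and -0.37 in the second, and after scaling it was 0.37 and -0.40. In the numbered range g17482 to g17501, all 11 members were raised by NaCl and by trehalose at 24 h, and 6 by mannitol. Over all genes the raised shares were 7.75%, 6.99% and 8.46%. All 11 were higher with trehalose than with mannitol, against 1.27% of all genes. Each was lowest at PreCondTre 0 h, so a rise with trehalose was favoured by the selection. Tested genes of the range that are not members were not counted. The difference between such sets was not tested.

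Genes chosen by the same rule at neighbouring times gave other counts. For 150 genes highest at PreCondTre 24, 36 or 48 h, taken from 258 candidates, NaCl at 24 h raised 34 and lowered 6, mannitol raised 60 and lowered 1, and trehalose raised 80 and lowered 2. There 50 were higher with trehalose than with NaCl (8.78% of all genes) and 3 lower (8.34%). For 150 genes highest at Rehydration 12 or 24 h, taken from 1999 candidates, NaCl raised 11 and lowered 30, mannitol raised 13 and lowered 38, and trehalose raised 2 and lowered 67. The shares over all genes were 7.75% raised and 11.2% lowered with NaCl, 8.46% and 4.76% with mannitol, and 6.99% and 10.3% with trehalose. The genes of ARId1, the cluster of Lea and related genes that the rule leaves out, had 39 members tested, of which NaCl raised 34, mannitol 23 and trehalose 33 at 24 h. The first list was chosen by its high level in trehalose, so its counts with trehalose are not independent of that choice. These lists share their control libraries with the members, and no test between lists was made.

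Whether an osmotic response grew from 3 to 24 h was tested as the difference of the 2 responses. With NaCl it was larger at 24 h in 42 members (28.0%), against 24.7% of all genes, and smaller in 2, against 0.497%. With mannitol it was larger in 17 (11.3%), against 10.7%, and smaller in 0, against 0.487%. With trehalose it was larger in 41 (27.3%), against 14.6%, and smaller in 0, against 0.751%. The members were chosen from a time course in trehalose, so their responses to trehalose are not independent of the selection. For NaCl and mannitol the members' shares of larger responses lay close to the background in the values as deposited. After median ratio scaling the response to NaCl was larger in 24 of the 150 members, against 5.67% of all genes, and smaller in 2, against 5.85%. That to mannitol was larger in 5 (3.33%), against 2.1%, and smaller in 2, against 2.43%. That to trehalose was larger in 28 (18.7%), against 4.14%, and smaller in 0, against 4.54%. Without Control 3 h replicate 2 the larger responses to NaCl numbered 26 and to mannitol 10, and without Control 3 h replicate 1 those to mannitol numbered 27.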

How the data were processed

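RNA sequencing of 84 Pv11 libraries was analysed from 1 table. The authors mapped reads to coding sequences with Bowtie2 v2.3.5.1 and RSEM v1.2.30 through Trinity v2.9.1, and deposited TPM per transcript (66333 transcripts), which is corrected for length and scaled to the same total in each library. The mapped counts, to which the authors applied DESeq2 and edgeR, were not used here. Depth is unknown, so no counting interval is given.

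TPM was summed per gene and analysed as log2(TPM + 1). Genes with a mean above 1 TPM were kept. The 54 stress libraries were fitted together in limma 3.58.1 (R 4.3.3) with 1 coefficient per group and a mean-variance trend. No time-course contrast was tested. Fold changes on this scale understate those of low genes. The script was tested on simulated data. Tables and plots were made with Python 3.11.15, pandas 2.3.3 and matplotlib 3.10.9. Replicates are biological replicates per the study, with no culture named in the labels, so p-values measure the spread between these samples.

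Samples with the same replicate number were checked for pairing by the correlation of their deviations from group means. All 3 values exceeded 0.1 for trehalose against NaCl at 24 h (0.161 to 0.487) and for paraquat at 1 h (0.150 to 0.168), and not in any other comparison.

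The members and lists were chosen with earlier results of these data known. Named were the 5 members of largest R, the 3 of highest peak TPM, the 2 largest rises and falls called at 24 h with each osmolyte whose libraries did not overlap the controls, the 2 largest changes after paraquat and heat, PvLea12a, 1 longest run of consecutive numbers, the 2 members at the border, and g17267. This is a shortened form of a longer fixed list, since the identifiers carry no names. Lists by product name were void. Alternatives were median ratio scaling, a pseudocount of 0.1, no filter, no trend, fits of the 2 groups alone, a replicate block, and leaving out replicates. Leaving out single libraries was added after seeing the data.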

Additional observations from a re-analysis of the deposited data

Results flagged for a closer look

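The response to an osmolyte differed between 3 h and 24 h, by the test of that difference (limma, adjusted p under 0.05 and fold above 2), in 21 of the 63 pairs of named member and osmolyte, which fell on 12 members. Values are log2 differences, the response at 24 h minus that at 3 h. With NaCl the response was larger at 24 h by 5.24 for g3547, 3.05 for g17499, 2.50 for g17501, 1.95 for g9973, 1.93 for g17500, 1.83 for g17267 and 1.39 for PvLea12a (g17258). For g10342 it was -1.79, so that a response above control at 3 h, not called, stood beside a fall at 24 h. With mannitol the difference was 4.36 for g3547 and 1.76 for g17499. With trehalose it was 4.12 for g3547, 3.12 for g17499, 2.95 for g17501, 2.41 for g9973 and 1.87 for g17485. It was 1.86 for g17498, 1.78 for g17500, 1.62 for g8825, 1.59 for g17258, 1.41 for g12479 and 1.37 for g17267. After median ratio scaling 17 of the 21 differences were still called, and the others were those of g3547 with mannitol (4.10) and trehalose (3.81), g12479 with trehalose (0.88) and g17267 with trehalose (0.87).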

How the results depend on the processing

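The raised counts at 24 h were the steadiest. Under every alternative run, leaving out replicates or single libraries included, NaCl raised between 51 and 66, mannitol between 43 and 69 and trehalose between 50 and 66 members. With the replicate block all 3 counts were those of the main fit (54, 51 and 58), as were the 19 and 29 members that differed between trehalose and NaCl. The block moved 3 counts by 1, from 16 to 15 for members raised by NaCl at 1 h, and for larger responses at 24 h from 42 to 41 with NaCl and from 17 to 16 with mannitol, and changed no other call count. Median ratio scaling moved more. At 1 h it gave 3 lowered by NaCl, 15 raised and 0 lowered by mannitol, and 0 lowered by trehalose. At 3 h it gave 60 raised and 2 lowered by NaCl, 50 and 2 by mannitol, and 48 and 2 by trehalose. At 24 h it gave 0 lowered by NaCl, 2 by mannitol and 0 called with paraquat, and larger responses than at 3 h in 24 with NaCl and 5 with mannitol, smaller in 2 with mannitol. A pseudocount of 0.1 gave 14 raised by mannitol at 1 h, 22 raised and 3 lowered by trehalose at 1 h, 8 lowered by mannitol and 36 raised by trehalose at 3 h. At 24 h it gave 1 lowered by NaCl, 4 by mannitol and 7 by trehalose, 11 called with paraquat and 5 after heat, and a smaller response to NaCl in 1. Without a filter trehalose lowered 0 at 1 h, and at 24 h NaCl lowered 1, paraquat called 0, heat called 1 and the response to NaCl was smaller in 1, as it was without the variance trend. Fits of the 2 groups alone gave 7 lowered by NaCl and 7 by trehalose at 3 h, 2 lowered by mannitol at 24 h, 13 called with paraquat at 24 h, and 1 and 0 after heat at 3 and 24 h. Leaving out replicates or single libraries, the lowered counts ran from 1 to 6 for mannitol and 0 to 2 for trehalose at 1 h, from 5 to 22 for NaCl, 4 to 11 for mannitol and 4 to 22 for trehalose at 3 h, and from 0 to 2, 1 to 2 and 2 to 6 at 24 h. Calls ran from 0 to 17 for paraquat at 24 h, and from 1 to 9 and 0 to 15 for heat at 3 and 24 h. Members higher with mannitol than trehalose ran from 6 to 23, larger responses at 24 h from 24 to 59 with NaCl and from 10 to 27 with mannitol, and smaller ones from 0 to 2 and 0 to 1. The cause of these moves was not tested. The peak stayed at Rehydration 0 or 3 h in 135 of the 150 members after scaling and in 139 to 143 without 1 replicate of each group, and the rule would then take 107 of the same 150 after scaling. Of 567 values of the named members at 24 h under these alternatives, 538 kept their direction and side of the threshold, 15 were no longer called, 12 became called and 2, not called to begin with, changed sign as replicates were left out, g9624 with NaCl (-0.12 to 0.45) and g17267 with trehalose (-0.015 to 0.58).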
